A study of Homo sapiens with 6 samples.

Results

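The 10 genes described here, MDM2, GDF15, SESN1, ZMAT3, TP53INP1, RRM2B, DDB2, XPC, FDXR and PHLDA3, are classical targets of the transcription factor p53, and they were followed in a line reported to lack functional p53. They were chosen by gene symbol and by no rule on measured values, but with earlier results of these data known. All 10 were among the 23710 rows of the table, and all 10 passed the filter on low counts that left 13591 genes. THP-1 is an established line grown from a human monocytic leukaemia, and its RNA was sequenced after an exposure of 6 h to either 10 uM mebendazole or DMSO, the solvent. Mebendazole, a benzimidazole used to treat worm infections, binds tubulin. Each group had 3 libraries, numbered as 3 pairs, and both groups came from the same line in the same medium with serum and antibiotics. Nothing says that the pairs were separate cultures, so the p-values cover only the spread among these libraries, part of which can be technical.

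p53 is held at a low level by MDM2, a ubiquitin ligase that p53 itself induces, so the pair forms a feedback loop. DNA damage and other stresses break the loop, and p53 then switches on genes of cell cycle arrest, DNA repair, metabolism and cell death through a DNA element made of a pair of similar decamers. Many of these genes also answer to other factors, among them those of the stress-activated kinase and integrated stress pathways. In bulk RNA, fewer cells that express a gene and less RNA per cell cannot be told apart. Reads per gene do not show protein function, so the reported lack of functional p53 was not checked by these data.

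Library totals lay between 13420558 and 15727667 reads. The reads matched a monocytic lineage, although these markers cannot identify the line itself. Of the markers of that lineage, 12 of 12 had 30 or more reads in DMSO, as did 4 of 5 stromal and endothelial markers. The monocytic markers summed to 2474 to 2619 CPM (counts scaled to library size with TMM factors) in the DMSO libraries and 2196 to 2255 CPM with mebendazole. Within that sum single markers moved both ways, such as CYBB from a mean of 190 to 12.9 CPM and SPI1 from 323 to 638 CPM. Of the T and NK cell markers, the CD3 genes had between 1 and 5 reads each in DMSO and 0 in the treated libraries. The whole list, through NKG7 and CD8A, summed to 13.6 to 15.7 CPM in DMSO and 29.5 to 31.7 CPM after treatment. B cell markers summed to at most 1.98 CPM, epithelial markers to at most 2.04 CPM and erythroid markers to at most 0.307 CPM in any library. Of the stromal and endothelial markers COL1A2 had no read, and the list summed to 93.1 to 103 CPM in DMSO and 127 to 148 CPM after treatment, nearly all of it PECAM1, which monocytes express too. The part of these markers in the results below was not tested.

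The promoters of these genes are shown first because p53 is known to act on its targets through such an element, which need not lie in the windows searched. RefSeq windows (GRCh38.p14, from 250 bases before to 50 after a start) matched 7 of the 10 symbols, with 15 windows, since a gene can have several starts. A full p53 element was searched on both strands as a pair of decamers. The strict form, with a spacer of 0 to 13 bases, was found in DDB2 and in 0.0285% of all 35116 windows. A looser form, chosen after the strict search, had no spacer and up to 3 mismatches outside the core C and G of each decamer, and it was found in DDB2, FDXR, GDF15, MDM2 and SESN1 and in 1.12% of all windows (1.37% of genes). These 5 genes are named in the order of the alphabet; 3 of them rose with mebendazole and 2 fell. The sites follow with a few flanking bases, 5′ to 3′ on the gene's strand, with the element in capitals, and 2 or 3 mismatches in each but the strict DDB2 match.
MDM2, chr12:68808918-68808947, plus strand: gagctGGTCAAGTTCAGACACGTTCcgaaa
DDB2, chr11:47214975-47215003, plus strand: gtttGAACAAGCCCTGGGCATGTTTggcg
GDF15, chr19:18386181-18386207, plus strand: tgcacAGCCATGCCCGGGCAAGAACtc
SESN1, chr6:109009013-109009042, minus strand: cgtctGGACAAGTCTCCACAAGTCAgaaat
FDXR, chr17:74872991-74873020, minus strand: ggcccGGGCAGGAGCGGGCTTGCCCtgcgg

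A single p53 decamer was in windows of DDB2, FDXR and SESN1 and in 6.63% of all windows, and it lies within the full elements above. The AP-1 site TGANTCA was in MDM2 and in 7.71% of all windows. The ATF4-CHOP composite site TGATGNAAN was in 3.61% of all windows and in 0 of the 15, and the NF-kB site was in 5.91% and in 0 of the 15. A match is a description of the letters, not evidence of binding. For the member with the most reads among those that rose and had a window, and for the member that fell most, the 250 bases before the start are shown, with the AP-1 and p53 matches in capitals. The MDM2 stretch belongs to its inner start, chr12:68808767-68809016, plus strand, and the FDXR stretch to its outer start, chr17:74872995-74873244, minus strand.
MDM2: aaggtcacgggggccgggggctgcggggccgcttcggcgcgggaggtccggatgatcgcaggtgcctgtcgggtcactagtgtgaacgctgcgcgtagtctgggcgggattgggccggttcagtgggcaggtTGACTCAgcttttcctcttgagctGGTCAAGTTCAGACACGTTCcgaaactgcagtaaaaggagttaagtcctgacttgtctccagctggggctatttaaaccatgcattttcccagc
FDXR: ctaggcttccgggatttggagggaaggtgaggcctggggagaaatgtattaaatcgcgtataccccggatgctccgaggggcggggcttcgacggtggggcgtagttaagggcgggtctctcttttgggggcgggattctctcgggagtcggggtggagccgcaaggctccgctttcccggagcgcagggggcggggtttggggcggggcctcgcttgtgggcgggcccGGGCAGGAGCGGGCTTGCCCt

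Mebendazole was compared with DMSO to ask whether these targets moved together. They did not. GDF15, RRM2B, PHLDA3, TP53INP1, DDB2 and MDM2 rose, 6 of the 10, by 1.75-fold to 6.61-fold. FDXR was 4.21-fold lower, SESN1 1.20-fold and ZMAT3 1.19-fold, and XPC did not pass the test. The calls are those of edgeR's quasi-likelihood test at an adjusted p under 0.05 over all 13591 genes, which called 82.3% of all genes, 40.6% higher and 41.7% lower. The libraries of the groups did not overlap for 6 members that were higher and 2 that were lower, against 82.4% of all genes, 40.5% higher and 41.9% lower. So large a share of all genes passed that a call alone sets no member apart. The median log2 fold change of the 10 was 0.82, against -0.03 over all genes tested. Against the stricter null of a 1.5-fold change, 6 members were higher and 1 lower, where 42.5% of all genes passed, 21.3% higher and 21.2% lower.

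**Figure D1:**
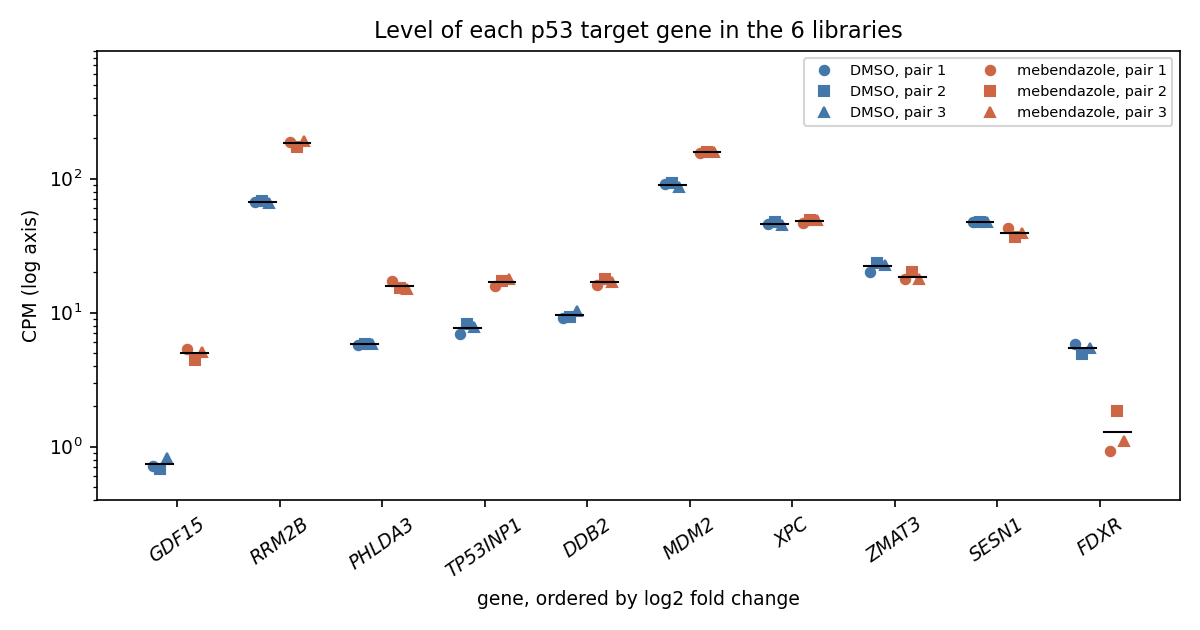
Level of each gene in CPM (log axis) in the 3 DMSO (blue) and 3 mebendazole (orange) libraries; symbols mark the pair and bars the group mean. The groups do not overlap for the 6 genes at the left, for SESN1 and for FDXR, and they overlap for XPC and ZMAT3.

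MDM2, the ligase that marks p53 for destruction, is the feedback arm of the pathway. Its level was 90.6, 92.5 and 86.5 CPM in the DMSO libraries and 155, 159 and 157 CPM with mebendazole. The groups lay far apart, and each was tight. The mean rose from 89.9 ± 3.07 to 157 ± 1.88 CPM (SD, n = 3 per group), with a log2 fold change of 0.80 (SE of the 3 pair ratios 0.03, edgeR adjusted p = 1.1e-27). MDM4, the relative of MDM2 that binds p53 and blocks it, fell from 103 ± 10.1 CPM in DMSO to 82.2 ± 9.97 CPM with the drug (log2 fold change -0.32, SE 0.03, edgeR adjusted p = 1.2e-09). The 2 relatives therefore moved in opposite directions. Pair 2 was the highest in both groups for MDM4, so its groups nearly touched at 93.9 and 93.7 CPM while each pair fell.

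GDF15, a secreted stress cytokine of the TGF-beta family, had the largest rise of the 10 from the lowest level. It had 11, 10 and 14 reads in the DMSO libraries, or 0.723, 0.678 and 0.823 CPM. With mebendazole it had 75, 58 and 65 reads, or 5.31, 4.45 and 5.12 CPM. Every treated library was above every control library. The mean of 0.741 ± 0.0742 CPM rose to 4.96 ± 0.453 CPM (log2 fold change 2.73, edgeR adjusted p = 4.5e-17). The 3 pair ratios, which carry a prior count of 2, were lower, at 2.66, 2.49 and 2.45. Their SE of 0.07 is not the error of the edgeR value. With 35 reads in DMSO in all, the ratio of summed counts, 6.67, had a 95% counting interval of 4.64 to 9.85, which covers counting error only. Of all genes tested, 95.9% had a lower log2 fold change than GDF15.

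Of the members in the repair of DNA damaged by ultraviolet light, DDB2 was called higher and XPC was not called. DDB2, which finds the lesion and hands it on, was at 9.07, 9.29 and 10.3 CPM in DMSO and at 16.1, 17.8 and 16.998 CPM with mebendazole. Its log2 fold change was 0.83 (SE 0.06, edgeR adjusted p = 5.6e-12), and it was higher in each of the 3 pairs. XPC, which can take the lesion over, was at 45.9, 47.7 and 44.7 CPM in DMSO and at 47.0, 49.1 and 48.9 CPM with mebendazole. These groups overlapped, and XPC did not pass the test (log2 fold change 0.07, SE 0.03, edgeR adjusted p = 0.25). The ratio of its summed counts was 1.05, with a 95% counting interval of 0.985 to 1.12. With library totals in place of TMM the sign of XPC turned (-0.18, adjusted p = 0.0028), so no direction can be given for it. XPC also shares 318 bases, 8.30% of its exon length in GENCODE v29, with LSM3 on the opposite strand. It shares 635 bases (16.6%) with AC093495.1 and 413 bases (10.8%) with AC090004.1, also on the opposite strand, and neither has a row among the counts. Reads there cannot be told apart, and LSM3 went from 2662 to 1806 reads.

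RRM2B, the small subunit of ribonucleotide reductase that supplies DNA building blocks outside S phase, rose by nearly the same factor as PHLDA3, with log2 fold changes that differed by less than their SE. It was at 66.5, 68.0 and 66.1 CPM in DMSO and at 188, 172 and 190 CPM with mebendazole. The control libraries lay close together and far below the treated ones. The mean of 66.9 ± 0.987 CPM rose to 183 ± 9.91 CPM (2.74-fold, log2 fold change 1.45, SE 0.06, edgeR adjusted p = 8.6e-41). RRM2, the small subunit of dividing cells, had a smaller log2 fold change of 0.57 (SE 0.04), at 52.4 ± 0.717 CPM in DMSO and 77.7 ± 4.35 CPM with the drug. RRM1, the large subunit they share, averaged 109 ± 2.94 CPM in controls against 100 ± 4.66 CPM in treated libraries. RRM1 had a log2 fold change of -0.12 (edgeR adjusted p = 0.0092), and the call was lost in DESeq2 (adjusted p = 0.153) and without pair 2 (adjusted p = 0.129).

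PHLDA3, a PH domain protein that competes with AKT at the membrane, was at 5.72, 5.83 and 5.88 CPM in DMSO. With mebendazole it was at 17.2, 15.2 and 15.03 CPM, each well above the controls. It rose 2.72-fold (log2 fold change 1.44, SE 0.07, edgeR adjusted p = 2.3e-19). PHLDA3 shares 598 bases, 22.2% of its exon length, with a same-strand GENCODE gene that has no row in the table. Its relatives rose too, PHLDA2 by 10.4-fold, from 4.603 ± 0.348 to 48.2 ± 4.53 CPM, and PHLDA1 by 43.8-fold, from 6.80 ± 0.199 to 299 ± 7.43 CPM. TP53INP1, a stress protein of the nucleus and of autophagosomes, was at 6.90, 8.27 and 7.88 CPM in DMSO and at 15.9, 17.3 and 17.8 CPM with mebendazole. It rose 2.21-fold (log2 fold change 1.15, SE 0.04, edgeR adjusted p = 1.3e-16), and the lowest treated library was above the highest control. Its relative TP53INP2, chosen by its small p among the family relatives, rose from 5.84 to 71.3 CPM.

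SESN1, a sestrin that restrains the growth kinase complex mTORC1, was lower with mebendazole in each pair. It was at 47.3, 47.3 and 47.5 CPM in DMSO and at 42.8, 36.6 and 39.3 CPM with mebendazole. The controls hardly varied, and the treated libraries spread more widely below them. The log2 fold change was -0.26 (SE 0.07, edgeR adjusted p = 4.8e-05), and the test against a 1.5-fold change did not call it. Its relative SESN2 rose from 14.03 ± 0.263 CPM in controls to 41.5 ± 1.23 CPM in treated libraries (log2 fold change 1.56, SE 0.04, edgeR adjusted p = 2.1e-30). SESN3 was at 127 ± 4.92 and 141 ± 2.79 CPM, with a log2 fold change of 0.15 that turned to -0.09 with library totals. The sestrin genes thus split, SESN1 lower and SESN2 higher under TMM, RLE scaling and library totals alike.

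ZMAT3, a zinc finger protein that binds RNA and alters splicing, was at 20.05, 23.5 and 22.7 CPM in DMSO and at 17.9, 20.2 and 17.7 CPM with mebendazole. The lowest control library, from pair 1, lay below the highest treated one, from pair 2. Its log2 fold change was -0.25 (SE 0.06, edgeR adjusted p = 0.0028), but without pair 3 the call was lost (-0.19, adjusted p = 0.0718), and DESeq2 did not make it (adjusted p = 0.124). ZMAT3 was the called member whose groups overlapped.

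FDXR, ferredoxin reductase, passes electrons from NADPH to the mitochondrial ferredoxins for iron-sulphur cluster and steroid synthesis. It had 89, 73 and 92 reads in the DMSO libraries, or 5.85, 4.95 and 5.41 CPM. With mebendazole 13, 24 and 14 reads were left, or 0.921, 1.84 and 1.10 CPM. No treated library came near a control, although pair 2 fell less (log2 ratio -1.36) than pairs 1 and 3 (-2.50 and -2.16). The log2 fold change was -2.07 (SE 0.34, edgeR adjusted p = 5.8e-14), and the 95% counting interval of the ratio was 0.172 to 0.321. A lower log2 fold change than that of FDXR was measured for 3.17% of genes tested.

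**Figure D2:**
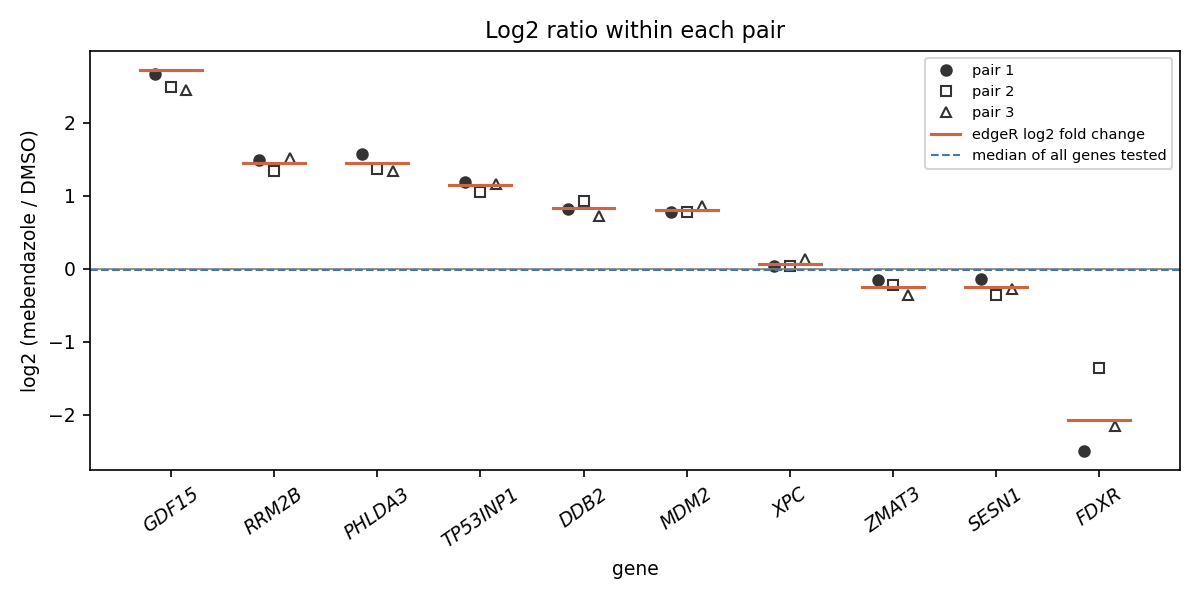
Log2 ratio of mebendazole to DMSO within each of the 3 pairs (symbols, from CPM with a prior count of 2), the edgeR log2 fold change (orange bars), 0 (grey line) and the median of all genes tested, -0.03 (dashed). The 3 pairs lie on the same side of 0 for every gene, the 3 GDF15 ratios, which carry the prior count, lie below its fitted value, and FDXR has the widest spread.

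Levels can be compared between genes only per length, here as CPM per kilobase of all exons merged in GENCODE v29, which need not be the transcript these cells make. On that scale RRM2B was highest in DMSO at 12.99 ± 0.192, followed by XPC at 12.04 ± 0.393 and SESN1 at 11.999 ± 0.0353, whose libraries overlapped. MDM2 at 7.06 ± 0.241 and DDB2 at 5.11 ± 0.347 came next. ZMAT3, FDXR and PHLDA3, at 2.32, 2.29 and 2.16, followed without a gap beyond their spread between ZMAT3 and FDXR or between FDXR and PHLDA3. TP53INP1 at 1.35 and GDF15 at 0.618 were the lowest. With mebendazole RRM2B reached 35.6 ± 1.92 and was still first, and XPC at 12.6 and MDM2 at 12.3 overlapped behind it. SESN1 at 10.0 and DDB2 at 9.07 overlapped too. PHLDA3 at 5.87, GDF15 at 4.13, TP53INP1 at 2.99 and ZMAT3 at 1.95 came next, and FDXR at 0.546 moved from the 7th place to the last.

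A wider list of 40 other p53 targets was read beside these genes. It was drawn up with earlier results of these data known, so its counts are a description. Of 36 tested, 25 rose and 8 fell (69.4% and 22.2%), where 40.6% of all genes tested were called higher and 41.7% lower. At least 2-fold, 19 rose and 1 fell, where 15.5% and 14.8% of all genes did. The median log2 fold change of the 36 was 1.03. The 4 with the smallest p were BTG2, an antiproliferative cofactor of mRNA decay (3.07), the death receptor gene TNFRSF10B (3.30), CDKN1A, which encodes the cell cycle inhibitor p21 (3.70), and NINJ1, a protein of membrane rupture (2.67). CDKN1A went from 19.98, 14.98 and 16.5 CPM in DMSO to 228, 219 and 223 CPM with mebendazole, a rise of 13.01-fold. NINJ1 went from 61.9 ± 1.96 to 393 ± 1.81 CPM.

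The 8 that fell, named after their values were seen, were TRIM22 (-1.40), TRIAP1 (-0.62), APAF1 (-0.55), the gene of TIGAR (-0.47), ASCC3 (-0.34), the gene of PIDD1 (-0.26), FBXO22 (-0.17) and CCNG1 (-0.09). RPS27L, ACER2 and CDIP1 did not pass the test. FAS, SPATA18, EDA2R and CMBL had too few reads to be tested, at 14, 25, 0 and 32 in DMSO and 32, 9, 2 and 5 with mebendazole. With library totals 24 of the wider list were higher and 10 lower, and the median was 0.79, where that of all genes was -0.27. Of all genes called under that scaling, 36.4% were higher.

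**Figure D3:**
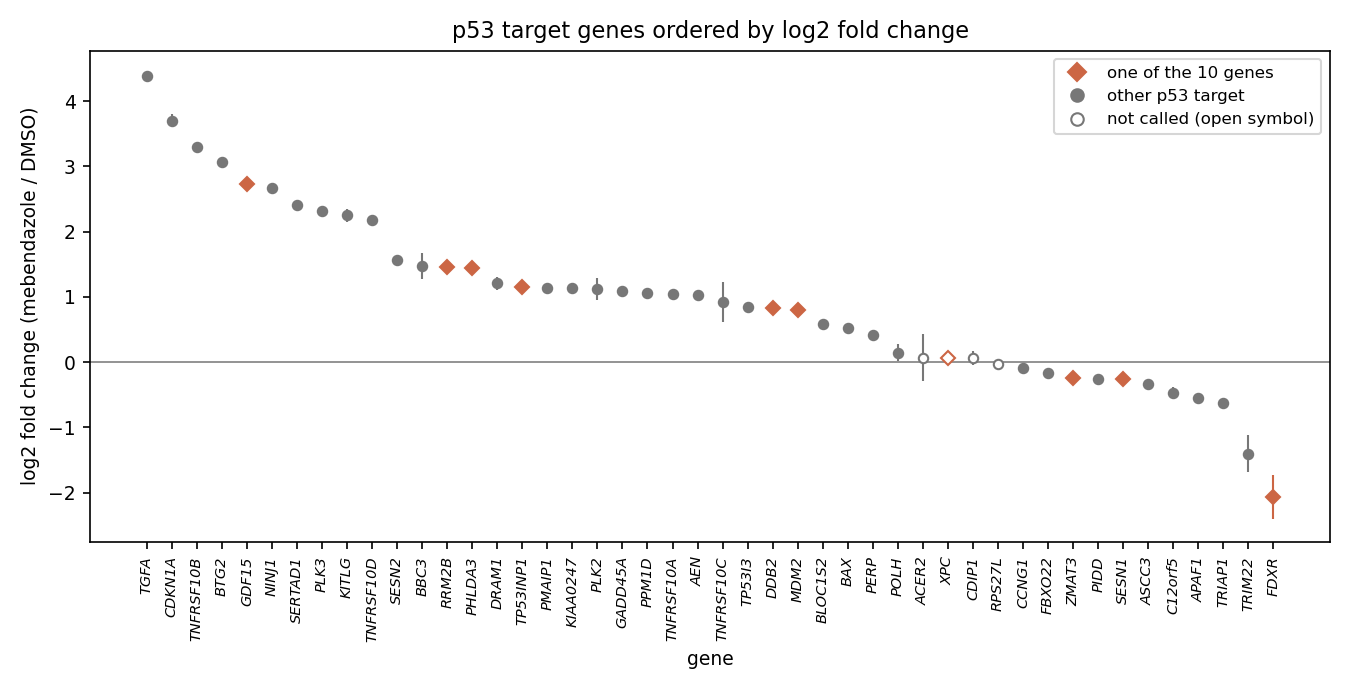
Log2 fold change (mebendazole over DMSO) of the 10 genes (orange diamonds) and of 36 other p53 targets (grey), with the SE of the 3 pair ratios; open symbols did not pass the test. The 10 genes run from GDF15 at 2.73, below 4 other targets led by TGFA, to FDXR at -2.07, the lowest point.

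Genes that control p53 went both ways, with 10 of 20 tested higher and 7 lower (median log2 fold change 0.05). Genes as a whole did so too, with 40.6% of all tested called higher and 41.7% lower (median -0.03). With library totals, which move the median of all genes to -0.27, 7 of the list were higher and 12 lower. HIPK2, a kinase that phosphorylates p53, rose from 42.5 ± 2.04 to 105 ± 7.89 CPM, and CREBBP, an acetylase, from 83.1 ± 3.85 to 134 ± 2.36 CPM. The damage kinase genes PRKDC and CHEK2 fell, PRKDC from 478 ± 16.8 to 283 ± 6.88 CPM and CHEK2 from 27.5 ± 0.746 to 9.71 ± 0.907 CPM. CDKN2A, whose product ARF restrains MDM2, had 0 reads in each of the 6 libraries, which allows a level of up to 0.176 to 0.236 CPM (3 reads in a library).

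The partners of DDB2 and XPC in nucleotide excision repair included 16 of 25 that were lower and 4 that were higher (median log2 fold change -0.31), where 41.7% of all genes tested were lower and 40.6% higher (median -0.03). With library totals 22 were lower and 2 higher, a scaling that moves the median of all genes to -0.27. The smallest p-values were those of ERCC2, a helicase of TFIIH (-1.62), the TFIIH subunit genes GTF2H3 (-1.04) and GTF2H5 (-1.31), and RPA1, which binds single-stranded DNA (-0.82). DDB1, the direct partner of DDB2, fell from 263 ± 6.50 CPM in DMSO to 184 ± 5.39 CPM with the drug (log2 fold change -0.52, SE 0.03) while DDB2 rose. The groups of both genes were free of overlap, in opposite directions.

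Other genes of deoxynucleotide supply were lower in 9 of 13 and higher in 3 (median -0.30). These shares were 69.2% and 23.1%, beside 41.7% lower and 40.6% higher over all genes tested. With library totals, which move the median of all genes to -0.27, 10 were lower and 1 higher. SAMHD1, which destroys deoxynucleotides (-0.89), CMPK2, a mitochondrial nucleotide kinase (-2.20), and DUT, which removes dUTP (-0.63), were among the 4 with the smallest p-values. Among the partners of FDXR and the genes of iron-sulphur assembly, 6 of 17 were higher and 7 lower (median -0.02), near the shares of all genes. With library totals 2 were higher and 9 lower. BOLA3 and GLRX5, genes of iron-sulphur cluster maturation, fell by 1.42 and 0.83 on the log2 scale, whereas CYP27B1, which makes active vitamin D with electrons supplied through FDXR, rose by 1.77. FDX1, which takes its electrons from FDXR, was at 17.6 ± 0.430 and 21.1 ± 1.23 CPM. Its log2 fold change of 0.26 passed the test in edgeR (adjusted p = 0.0020), but not with library totals (0.02, adjusted p = 0.829) or in DESeq2 (adjusted p = 0.071).

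A list of stress genes went both ways. It covered the ATF4 and CHOP route, known to raise GDF15 and SESN2 without p53, and neighbouring stress pathways. Of 14 tested, 9 rose and 4 fell (median 0.63), where 40.6% of all genes tested rose and 41.7% fell. With library totals, which move the median of all genes to -0.27, 7 of the list rose and 6 fell. The cystine transporter gene SLC7A11 (2.96), PPP1R15A, which restores translation (2.50), DDIT4, an inhibitor of mTORC1 (2.75), and the pseudokinase gene TRIB3 (1.70) had the smallest p-values. The other genes of the list are named after their values were seen. ATF3 rose by 2.75 and CEBPB by 2.41 on the log2 scale, and VLDLR by only 0.26. Others barely rose or were lower. DDIT3, the gene of CHOP itself, had a log2 fold change of 0.12 with overlapping groups (edgeR adjusted p = 0.037), although ATF4 rose by 1.00. The asparagine synthetase gene ASNS fell by 0.90, and CHAC1, which degrades glutathione, was at -0.67 and did not pass the test (edgeR adjusted p = 0.060). EGR1, HSPA5 and XBP1, genes of growth factor and unfolded protein responses, were the others that fell. The part of any of these genes in the rise of GDF15 was not tested.

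**Figure D4:**
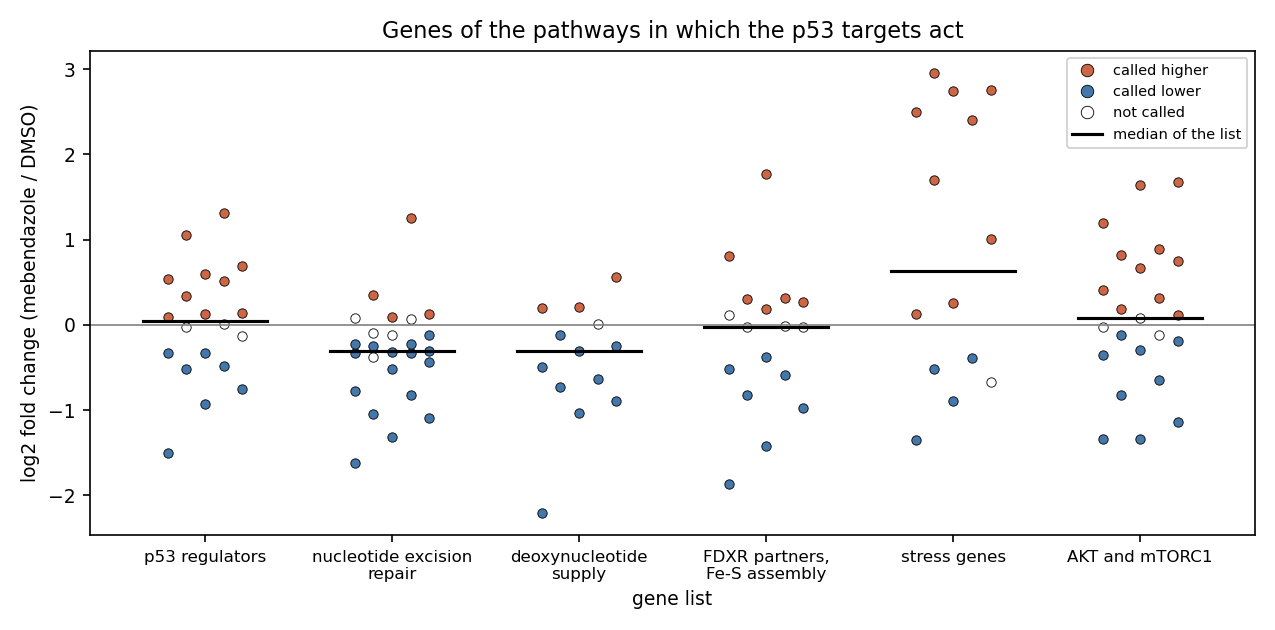
Log2 fold change (mebendazole over DMSO) of the tested genes of 6 lists around the p53 targets, coloured by the edgeR call, with the median of each list as a bar. The repair and deoxynucleotide lists have their medians at -0.31 and -0.30, and the stress list, which runs from below -1 to near 3, at 0.63.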

How the data were processed

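RNA of 6 THP-1 samples was sequenced from TruSeq RNA v2 libraries, per the labels' protocols, whose reads carry no strand. In the deposited file the values are whole-number counts of reads for each symbol, with a column for every sample and 0 columns of no sample. STAR, bedtools, HTSeq, DESeq2 and hg19 are named without roles, per the submitters' processing notes; the annotation and the strand setting: not given in the sources used here. Counts were tested in R 4.3.3 with edgeR 4.0.16 (filterByExpr, TMM, quasi-likelihood F test, two-sided, Benjamini-Hochberg over all genes tested), with the pair in the model because the labels give each sample a pair number and the series design states 3 pairs. The fit was tested on simulated data. The residual degrees of freedom of a gene were 2, those of the prior 61, so very small p-values rest on the pooled spread. No replicates agreed within sampling noise (chi-square per degree of freedom at least 1.58 in genes averaging at least 10 CPM).

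The SE is that of 3 within-pair log2 CPM ratios (prior count 2). Members and gene lists were chosen with earlier results of these data known, so counts within a list are a description. The named genes were all members, the 4 genes of each list with the smallest p, and 11 fixed relatives and regulators; a few of these are not reported here. Alternatives were RLE scaling, library totals, no filter, a mean CPM of 10 or more, DESeq2 1.42.0, no replicate block, a test against a 1.5-fold change, and leaving out each pair.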

Additional observations from a re-analysis of the deposited data

How the results depend on the processing

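Of 98 values of the members under the alternatives, 93 kept their sign and their side of the threshold, and GDF15, RRM2B, PHLDA3, TP53INP1, DDB2, MDM2 and FDXR did so wherever they were tested. With a mean CPM of 10 or more GDF15 and FDXR were not tested, so 5 of the 6 higher members and 2 of the 3 lower ones remained. XPC reversed with library totals (-0.18), a scaling that moves the median gene from -0.03 to -0.27 and the share of higher calls from 49.3% to 36.4%; SESN3 (-0.094), the median of the p53 regulators (-0.20) and that of the AKT and mTORC1 genes (-0.16) reversed with it too, the wider p53 list had a median of 0.79, and all context genes one of -0.31. That AKT median was -0.0013 among genes averaging at least 10 CPM, and the median of the FDXR partners, near 0 from the start, was 1.75e-05 with RLE scaling and between -0.021 and 0.0047 without 1 pair (above 0 without pair 2). The test against a 1.5-fold change, which asks for more, called 5774 genes, with 21.3% of all genes tested higher and 21.2% lower. It called 1 member lower, 1 wider p53 target lower and 26 context genes in each direction, and lost SESN1 (-0.26) and ZMAT3 (-0.25). DESeq2 lost ZMAT3 (-0.23) and gave the context genes a median of -0.014; the cause was not tested.

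Without 1 pair, ZMAT3 lay between -0.29 and -0.19 and lost its call without pair 3, and 10572 to 10885 genes were called. With no replicate block 11118 genes, against 11192, and the same number of members were called, and no call of a member changed. Same-numbered samples had deviations from their group means that correlated at -0.01, 0.13 and 0.06, so the pairing rests on the labels. Among 40 other named genes, sign and call held for 32 under all alternatives in which they were tested. Depth limits GDF15 in DMSO (35 reads) and FDXR with mebendazole (51 reads). No pseudocount was varied, because the table holds counts.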

Other observations

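Genes of the AKT and mTORC1 pathways, which PHLDA3 and the sestrins restrain, were not described above. Of 23 tested, 11 rose and 9 fell (47.8% and 39.1%), near the 40.6% and 41.7% of all genes tested. With library totals, which move the median of all genes to -0.27, 8 rose and 13 fell. The catalytic subunits of PI3 kinase split, with PIK3CG at 33.6 CPM in DMSO and 108 CPM with mebendazole (log2 fold change 1.68), PIK3CD at 198 and 78.4 CPM (-1.33), PIK3CA at 1.20 and PIK3CB at -0.64 (the last 2 named after their values were seen). RPTOR, the scaffold of mTORC1, rose by 0.89 and PDPK1, a kinase that activates AKT, by 0.82. NPRL2 and NPRL3, named likewise after their values were seen and subunits of the complex that restrains mTORC1 when amino acids are short, fell by 1.34 and 1.14 on the log2 scale. DEPDC5, the other subunit of that complex, did not pass the test (log2 fold change 0.08, edgeR adjusted p = 0.29), although it was higher in each of the 3 pairs.

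Of 15 tested family relatives of the 10 genes, 9 were called higher and 6 lower, and their median log2 fold change was 0.52. These shares were 60.0% and 40.0%, beside 40.6% and 41.7% of all genes tested. BMP6, like GDF15 a ligand of the TGF-beta family, had 1, 1 and 5 reads in the DMSO libraries and 270, 268 and 331 with mebendazole. The groups lay far apart, but so few control reads leave the size of its rise uncertain.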
